A study of Homo sapiens with 8 samples.

Results

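The comparison described here is H1.2 depletion against a control hairpin in 293T, an established line of transformed human kidney cells with the SV40 T antigen. Its members are the 4 arrays of 2 groups, out of 8 arrays in the series, chosen by the group named in each sample title: H1.2sh, cells expressing a short hairpin RNA against the linker histone H1.2 (2 arrays), and NCsh, cells with a control hairpin (2 arrays). The other groups were Cul4Ash, with a hairpin against Cul4A (2 arrays), and PAF1sh, with a hairpin against PAF1 (2 arrays). They are used to show where H1.2sh differed and, for some genes, where a change was shared. All groups are 293T cells expressing a hairpin, and total RNA from each was hybridized as biotinylated cRNA to an Illumina bead array. Each target had 1 hairpin and no rescue, so the effect of losing H1.2 and other effects of its hairpin cannot be told apart. In bulk RNA, fewer cells expressing a gene and less RNA per cell cannot be told apart either. Nothing in the labels gives the cultures behind the arrays. The spread that the p-values rest on is that between these particular arrays, and it may be technical.

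Linker histones bind the nucleosome where DNA enters and leaves it and help to fold the chromatin fibre. H1.2 is one of several somatic subtypes, encoded in the main histone cluster together with core histone genes, and its messenger RNA lacks a poly(A) tail when it is processed in the way typical of S phase. Cul4A is the scaffold of a ubiquitin ligase, and PAF1 belongs to a complex that travels with RNA polymerase II.

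Array medians lay between 82.8 and 88.7 on the linear intensity scale, and between 39.2% and 42.5% of probes were detected per array. After log2 transformation and quantile normalization the 2 H1.2sh arrays correlated at 0.996 and the 2 NCsh arrays at 0.996, against 0.987 to 0.989 for H1.2sh with NCsh (Pearson, across genes, which are not independent replicates). Of 17 markers of other cell types, 6 were measured and 0 of them passed the test, where 15.4% of all genes did. So small a count says little, and a test between hairpin groups does not bear on cell identity. Of 7 measured 293T markers, VIM rose by 0.43, a call lost under 1 alternative. INA was lower, past the band described next, and the others did not pass the test.

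Before the results, 3 features of the deposited values have to be given, because they bear on how the large falls can be read. First, almost no gene was lower in H1.2sh by between 0.55 and 0.65 on the log2 scale. That interval held 9 lower genes and 67 higher genes, while the next smaller interval, 0.45 to 0.55, held 129 lower and 123 higher, and the interval from 0.75 to 0.85 held 67 lower and 14 higher. The band was present without normalization too, at a slightly larger size, where 14 genes were lower by 0.65 to 0.75, against 157 lower by 0.55 to 0.65 and 72 lower by 0.85 to 0.95. Cul4Ash against NCsh had the same band, with 9 lower and 106 higher genes at 0.55 to 0.65. PAF1sh against NCsh had no such band, with 267 lower and 234 higher.

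**Figure D1:**
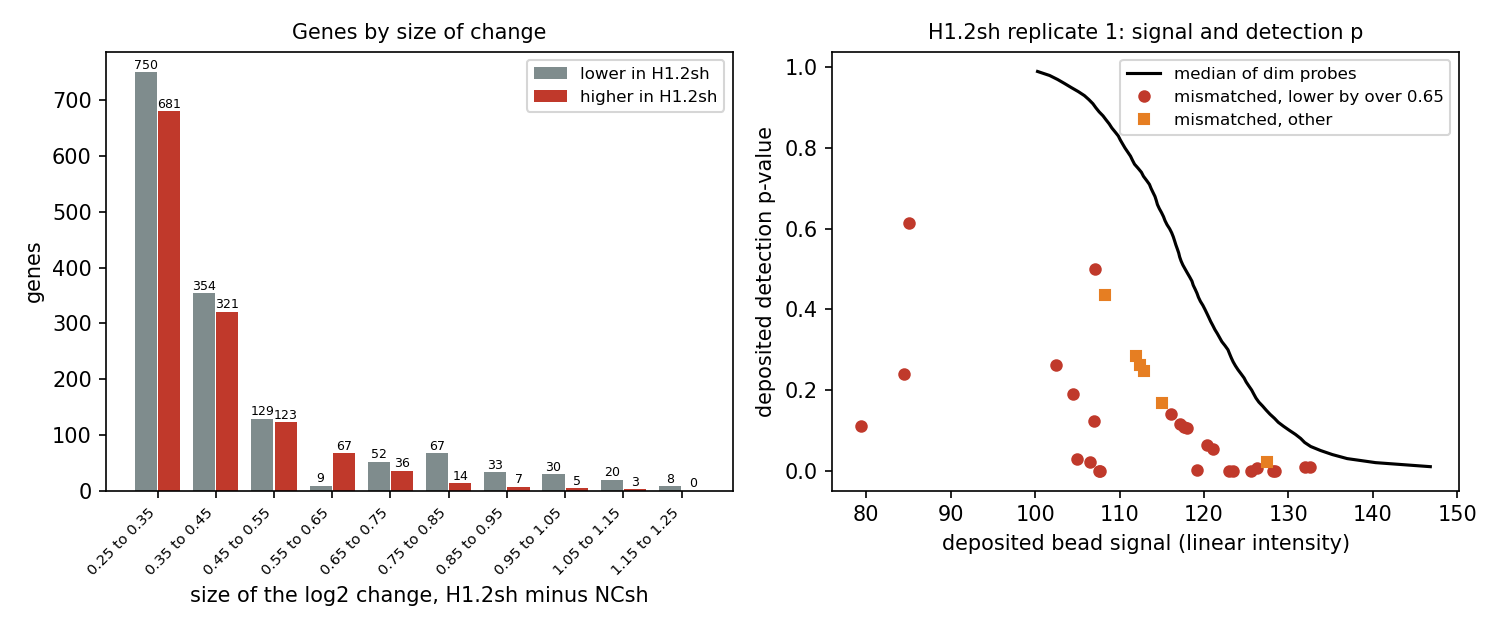
Left, the number of genes (vertical axis) by size of the log2 change of H1.2sh minus NCsh (horizontal axis), lower genes in grey and higher genes in red; 9 genes were lower by 0.55 to 0.65, against 67 higher. Right, deposited detection p-value against deposited bead signal on the array of H1.2sh replicate 1; the line is the median of dim probes, and the points are the probes whose detection p-value was more than 0.05 below the typical one at their signal, with those lower than NCsh by over 0.65 as red circles.

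Sets of genes on the 2 sides of the band can be described in the other groups, although their choice by H1.2sh minus NCsh fixes part of what is seen. For the 129 genes lower by 0.45 to 0.55, the median difference of H1.2sh from Cul4Ash was -0.25, and for the 52 genes lower by 0.65 to 0.75 it was -0.54, with -0.16 and -0.35 for H1.2sh minus PAF1sh. Over the same 2 sets of genes the median of Cul4Ash minus NCsh was -0.22 and -0.19, and that of PAF1sh minus NCsh -0.31 and -0.38. Genes higher by 0.45 to 0.55 and by 0.65 to 0.75 had medians of 0.24 and 0.21 for H1.2sh minus Cul4Ash and of 0.38 and 0.37 for H1.2sh minus PAF1sh.

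Second, on the array of H1.2sh replicate 1, most dim signals past the band did not match the detection p-values deposited beside them. A detection p-value is a function of the signal's place among the negative controls of its array, and on both NCsh arrays 0 dim probes departed from that function by more than 0.05 towards a smaller p. On the array of H1.2sh replicate 1, 26 of the 27 dim probes lower than NCsh by over 0.65 did so, against 6 of 27292 other dim probes. On the array of Cul4Ash replicate 1, 35 of 38 such probes did so, and on that of PAF1sh replicate 1, 7 of 31. For the 19 H1.2sh probes whose p-value allows a comparison, the deposited signal was lower than the typical signal with that p-value by 0.13 to 0.70 on the log2 scale, with a median of -0.23. These differences were not evenly spread, and many lay near -0.14, as for HSPA1A, IFITM1 and KHDC1. The 6 other mismatched probes had -0.13 or -0.14 as well. From the typical signals all 19 were lower than NCsh, with a median scanner change of -0.51, against -0.77 as deposited. These probes were chosen by their deposited fall, and the same NCsh values were reused. Their direction is therefore largely fixed by the choice and gives no independent support. Bright probes have a detection p-value of 0 at any signal, so this check cannot be made for them, and H1.2sh replicate 2 has no scanner values.

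A further feature was that the scanner signals of H1-2, the target gene, shared the same 4 decimals on 3 of the 7 arrays. Among the 44489 probes with a signal written to 4 decimals, 1 had this property, the one for H1-2, and 95 shared their decimals on 2 arrays. Among all probes with a signal of at least 100, signals written to 5 decimals numbered 28 on the array of H1.2sh replicate 1, 23 on that of Cul4Ash replicate 1, 0 on that of PAF1sh replicate 1 and 0 on both NCsh arrays. Of the 28, 17 were among the 278 such probes past the band and 11 were not. The origin of the band, of the mismatch and of the shared decimals was not tested. The deposited falls of over 0.65 are therefore given below as deposited. Neither their size nor their direction was checked independently, and their calls rest on the deposited values. The counts of lower genes per list say how many lie past the band where any do.

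Of 12300 genes tested, 895 were higher in H1.2sh than in NCsh (7.28%) and 1003 lower (8.15%), at an adjusted p under 0.05 (limma, Benjamini-Hochberg over all genes). The counts per list below are to be read against these shares. Of the lower genes, 227 lay past the band and 776 did not. Rises had a median size of 0.38 and falls of 0.40 on the log2 scale. At a size of at least 1.5-fold, 112 genes were higher and 233 lower, and 227 of these lower genes lay past the band. The balance between directions differed between normalizations. Rises were 47.2% of the called genes with quantile normalization, 18.1% with median scaling and 14.2% with none. The median change of all genes was -0.01, -0.07 and -0.09 in that order. With median scaling and with none the fit also gave all genes 1 shared variance. Those counts, and the counts per list with median scaling below, therefore differ by more than the scaling. The genes named below without a remark kept their call under every alternative that held them, other than neqc on the scanner signals. That method made 0 calls. The fit without the genes lower by over 0.65 did not hold the genes past the band, so it is no check of them. SMAD7, AK4, INSIG2, ANKRD37, LOX, BNIP3L, HK2, HLA-B, H2AC20 and H2AC19 were not followed under the alternatives, and CCND1 lost its call under 1.

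**Figure D2:**
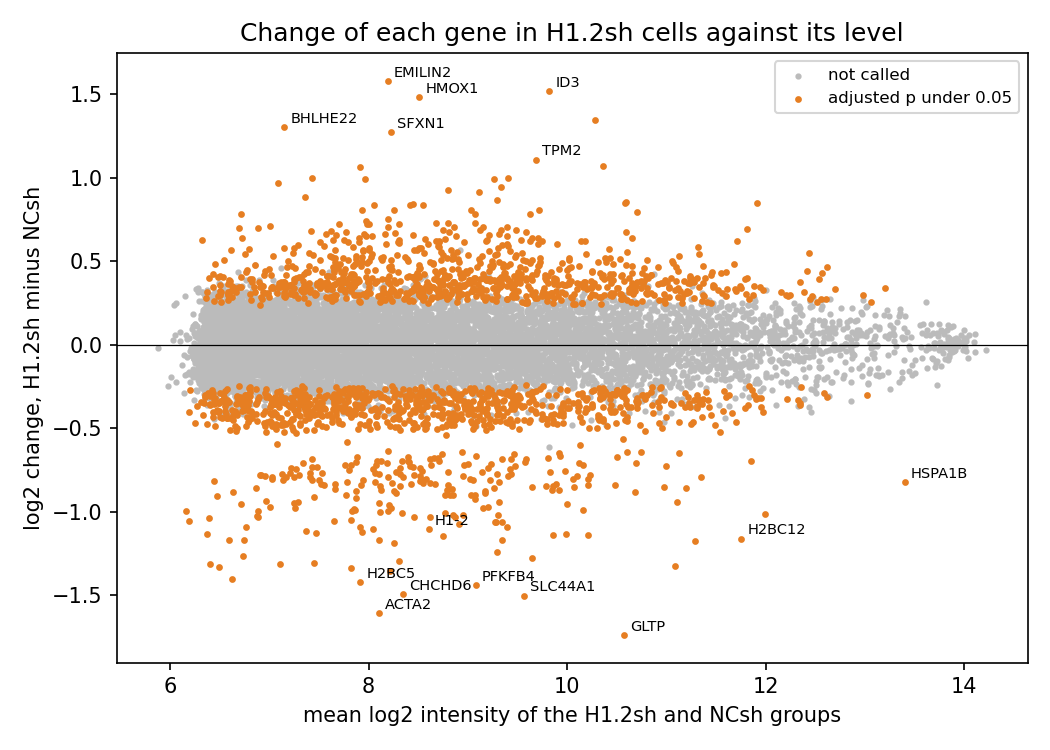
Log2 change of each gene, H1.2sh minus NCsh (vertical axis), against its mean log2 intensity over the 2 groups (horizontal axis), with called genes in orange. The sparse band on the lower side, with 9 genes between 0.55 and 0.65, has no counterpart above 0.

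H1-2 had a log2 intensity of 8.05 and 8.05 on the H1.2sh arrays, against 9.24 and 9.07 on the NCsh arrays. Both H1.2sh arrays were lower than both NCsh arrays. The deposited change was -1.11 ± 0.09 (SE, limma adjusted p = 4.39e-05), which lies past the band. Neither the size nor the direction of the knockdown could therefore be checked independently. H1.2sh was also lower than Cul4Ash by -1.22 and than PAF1sh by -1.12. Of the 10 linker histones, 9 were on the array and 3 were measured. H1-1 changed by -0.17 (adjusted p = 0.170) and H1-10 by -0.09 (adjusted p = 0.477), and neither passed the test. The other hairpin targets did not pass it in H1.2sh either, with 0.01 for CUL4A and 0.17 for PAF1. For CUL4A, the mean of all kept probes gave -0.16, which did not pass the test either (limma adjusted p = 0.239).

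The largest rises included regulators of differentiation and of signalling. EMILIN2, an extracellular matrix glycoprotein, had 8.99 and 8.97 on the H1.2sh arrays, against 7.33 and 7.48 on the NCsh arrays, a change of 1.58 ± 0.08 (SE; limma adjusted p = 5.59e-06). ID3, an inhibitor of basic helix-loop-helix factors and a target of BMP signalling, had 10.58 and 10.58 on the H1.2sh arrays, against 9.04 and 9.08 on the NCsh arrays. Its change was 1.52 ± 0.07, and for both genes the groups did not overlap. HMOX1, which degrades heme, had 9.14 and 9.36 on the H1.2sh arrays, against 7.74 and 7.80 on the NCsh arrays. HMOX1 thus rose by 1.48, again with no overlap of the groups. These genes were chosen for their large changes, so the lack of overlap adds no support.

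Further rises were found for BHLHE22, a neuronal transcription factor (1.30), SFXN1, a mitochondrial serine transporter (1.27), TPM2, a tropomyosin (1.11), FGFR3, a growth factor receptor (1.07), and BMP2, a secreted ligand of the BMP pathway (1.06). LONRF3, the nuclear pore subunit NUP160, the protocadherin PCDH7, the coagulation inhibitor TFPI, the sphingosine kinase SPHK1 and VGLL4, a cofactor of TEAD factors, rose by between 0.94 and 1.00. Second probes bore on 2 of these genes: TFPI's rose by 0.88, while a dimmer FGFR3 probe had -0.17.

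**Figure D3:**
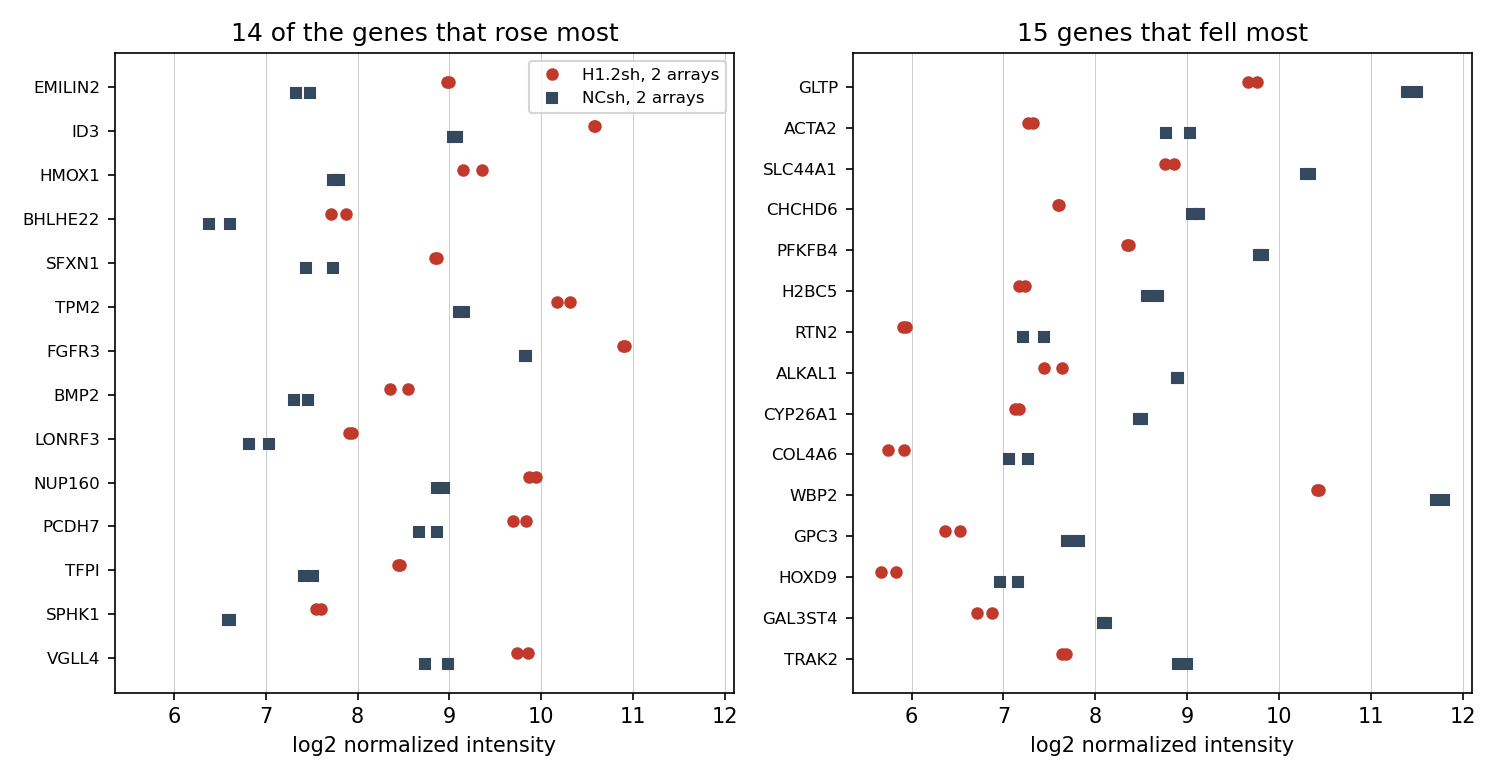
Log2 normalized intensity (horizontal axis) of 14 of the genes with the largest rise (left) and the 15 with the largest deposited fall (right), with each of the 2 H1.2sh arrays as a red circle and each of the 2 NCsh arrays as a dark square. In each of the 29 genes the groups do not overlap, and all 15 falls lie past the sparse band. Both follow largely from the choice of the largest called changes.

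Compared directly with the other hairpins, 10.2% of genes were higher and 12.4% lower in H1.2sh than in Cul4Ash, and 19.7% were higher and 20.4% lower than in PAF1sh. HMOX1 was higher in H1.2sh than in Cul4Ash by 1.85 ± 0.09 and than in PAF1sh by 1.42 ± 0.09 (limma adjusted p = 2.1e-06 and 3.9e-06). BHLHE22 was higher by 1.18 and 1.53, and TPM2 by 0.93 and 1.16. EMILIN2 differed from Cul4Ash by 0.14 ± 0.08 (adjusted p = 0.242), which did not pass the test. Other changes were shared. Against NCsh, ID3 was higher by 1.22 in Cul4Ash and 0.84 in PAF1sh, NUP160 by 0.72 and 0.91. VGLL4 was higher by 0.84 and 0.79, and PCDH7 by 0.90 and 1.70. PFKFB4 was lower by -0.94 and -1.01 and HSPA1B by -1.10 and -0.88, as deposited. HMOX1, BHLHE22 and TPM2 had no called rise in either group. HMOX1 was lower in Cul4Ash than in NCsh by -0.37 (limma adjusted p = 0.021), which is part of its difference of 1.85. All hairpins were compared with the same NCsh arrays, so a change shared by the hairpins and a trait of those arrays cannot be told apart. What the shared changes stem from was not tested. Below, values in the other groups are given for some list members only, so the other rises are not shown to be particular to H1.2sh. Against Cul4Ash, SLC6A9, a glycine transporter, was higher by 2.12 and PRAME by 1.22. Cul4Ash itself was lower than NCsh by -1.60 for SLC6A9, past its own band, so that most of this difference rests on deposited Cul4Ash values of the doubted kind, and by -0.44 for PRAME. Against PAF1sh, the cyclins CCND2 and CCND1 were higher by 2.60 and 2.44, and the protease ADAMTS1 by 2.43, where PAF1sh itself had lower levels than NCsh.

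Genes of the ID family and targets of TGF-beta and BMP signalling were among the groups with more rises than falls. ID proteins block basic helix-loop-helix factors, and their genes respond to BMP receptors through SMAD proteins. Of 20 measured members, 7 rose and 1 fell, with a median change of 0.11, against -0.01 over all genes. ID1 rose by 0.66 ± 0.10 (limma adjusted p = 0.0019), SNAI2 by 0.61 and the inhibitory SMAD7 by 0.52, while ID2 fell by 0.57 on the log2 scale, inside the sparse band. With median scaling 6 rose and 2 fell. Against NCsh, ID1 was also higher by 0.61 in Cul4Ash, and SNAI2 by 0.64 in Cul4Ash and 1.53 in PAF1sh. ID1 in PAF1sh, at 0.20, did not pass the test. ID2 was lower than NCsh by -0.75 in Cul4Ash and -0.70 in PAF1sh, as deposited.

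Antioxidant genes rose in a few members. Of 20 measured genes of heme degradation and the NRF2 response, 4 rose and 0 fell, among them HMOX1 and KEAP1, the inhibitor of NRF2, which rose by 0.69 ± 0.07. KEAP1 was also higher than in NCsh by 0.72 in Cul4Ash and 0.97 in PAF1sh. The median of the list was 0.08. Of 35 matrix and adhesion genes 4 rose, a share near the 7.28% of all genes, among them the metalloprotease inhibitors TIMP1 (0.85) and TIMP2 (0.63), and 6 fell, of which 1, COL4A6, lay past the band.

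Genes for growth and replication shifted upwards by small amounts that depended on the scaling. Ribosome biogenesis had 12 of 38 members higher and 1 lower with a median of 0.18, led by PPAN (0.71), MYBBP1A (0.58), RRP9 (0.53) and RRP12 (0.52), all factors of rRNA processing. With median scaling 6 rose and 1 fell. DNA replication had 10 of 52 higher and 0 lower, and with median scaling 4 rose. MCM5, a subunit of the replicative helicase, rose by 0.62, DUT by 0.60 and TK1 by 0.49. Against NCsh, MCM5, DUT and TK1 were also higher in Cul4Ash, by 0.60, 0.65 and 0.69. In PAF1sh, MCM5 and TK1 were higher by 0.55 and 0.51, while DUT had -0.01. Of the proteasome's 30 subunits 4 rose and of 47 splicing factors 6 rose. With median scaling both counts were 0, where 264 of all 12300 genes rose. Among 18 aminoacyl-tRNA synthetases 5 rose, led by MARS1 (0.64) and HARS1 (0.51), and 1 fell, GARS1, which lies past the band. With median scaling 3 rose and 1 fell. Oxidative phosphorylation subunits had a median of 0.00, with 3 higher and 2 lower of 70.

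Of 22 D-type cyclins, their kinases and CDK inhibitors 3 rose and 3 fell, 13.6% each way, against 7.28% and 8.15% of all genes. Of these falls 2, CDK6 and E2F5, lay past the band. CCND2, a D-type cyclin, had 11.02 and 10.997 on the H1.2sh arrays, against 10.12 and 10.20 on the NCsh arrays, a rise of 0.85 ± 0.08 (limma adjusted p = 8.5e-05). CDKN1A, a cyclin-dependent kinase inhibitor and p53 target, had 10.28 and 10.25 on the H1.2sh arrays, against 10.76 and 10.70 on the NCsh arrays. It fell by 0.47 on the log2 scale, on the near side of the band. Of 50 genes of G2 phase and mitosis 1 rose (2%) and 6 fell (12%), against 7.28% and 8.15% of all genes. Of these falls 0 lay past the band, and the median was -0.05. CENPE, a kinetochore motor, fell by 0.45, and KIF14, a mitotic kinesin, was lower by -0.49, a call lost under 3 alternatives. Of 23 p53 targets 1 rose and 5 fell, 2 of the falls lying past the band. With median scaling 0 rose and 8 fell.

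Amino acid and mitochondrial genes held a further set of rises. Of 26 targets of ATF4, the factor of the amino acid response, 6 rose and 2 fell, with DDIT3, a stress transcription factor, at 0.81 ± 0.09 and DDR2, a collagen receptor, at 0.70. Both falls lay on the near side of the band, and with median scaling 2 rose and 2 fell. Serine, glycine and one-carbon metabolism had 5 of 21 members higher and 0 lower, led by SLC6A9 at 0.53, and with median scaling 1 rose and 1 fell. Mitochondrial carriers and genes of inner membrane shape had 6 of 30 higher (2 with median scaling), among them SLC25A22, a glutamate carrier, at 0.62, and 3 lower, of which CHCHD6 lay past the band and CHCHD3, a subunit of the same membrane complex, did not, at -0.45.

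Of 35 Polycomb, DNA methylation and heterochromatin genes 7 rose and 0 fell with a median of 0.07, PCGF6 of a Polycomb complex being the highest at 0.55, and with median scaling 1 rose. Among 31 histone chaperones and histone mRNA factors 4 rose (12.9%) and 2 fell (6.45%), against 7.28% and 8.15% of all genes. Of these falls, HMGB2 lay past the band. With median scaling 1 rose and 1 fell. NASP, a chaperone of H1 and H3, rose by 0.53 ± 0.08 (limma adjusted p = 0.0018). NASP was also higher than in NCsh by 0.47 in Cul4Ash and 0.91 in PAF1sh. Of 27 partners of Cul4A and PAF1, 1 rose and 1 fell, 3.70% each way, which is below the shares of all genes.

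Several metabolic lists had more falls than rises, and their counts rest in part on genes past the band. The hypoxia response, driven by HIF factors that bind a short core motif, had 2 of 27 members higher and 10 lower, with a median of -0.24, and 5 of the 10 lay past the band. The others were AK4, inside the band, and INSIG2, ANKRD37, LOX and BNIP3L, lower by between 0.29 and 0.43. Glycolysis had 1 of 22 higher and 6 lower, 4 of them past the band, with PDK3 at -0.44 and HK2 at -0.42 on the near side. Cholesterol synthesis had 0 of 26 higher and 7 lower, 2 of them past the band. DHCR7, which catalyses the last step to cholesterol, was lower by -0.50 ± 0.09 (limma adjusted p = 0.0043), and SQLE by -0.47, a call lost under 1 alternative. Fatty acid synthesis had 2 of 20 higher and 7 lower, 1 of them past the band. With median scaling 12, 8, 10 and 7 members fell in the hypoxia, glycolysis, cholesterol and fatty acid lists in that order. Rises numbered 0 in each, and 1198 of all 12300 genes fell.

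For genes whose deposited falls lie past the band, the arrays are given as deposited. Neither the size nor the direction of these falls was checked independently. BNIP3, a mitophagy receptor and HIF target, had 10.68 and 10.72 on the H1.2sh arrays, against 11.82 and 11.93 on the NCsh arrays. PFKFB4, which controls fructose-2,6-bisphosphate, had 8.35 and 8.37 on the H1.2sh arrays, against 9.82 and 9.78 on the NCsh arrays. In both genes the H1.2sh arrays were the lower ones without overlap, which their choice by size of fall largely fixes. GLTP, a glycolipid transfer protein with the largest deposited fall, had 9.66 and 9.75 on the H1.2sh arrays, against 11.50 and 11.40 on the NCsh arrays. ACTA2, smooth muscle actin, had 7.32 and 7.27 on the H1.2sh arrays, against 8.77 and 9.04 on the NCsh arrays. SLC44A1, a choline transporter, CHCHD6, of the mitochondrial inner membrane, the reticulon RTN2, ALKAL1, the retinoic acid hydroxylase CYP26A1, WBP2, GPC3, GAL3ST4 and TRAK2 were likewise lower on both arrays. Second probes gave smaller values for 3 of them, -0.75 for SLC44A1, -0.48 for ALKAL1 and -0.19 for CYP26A1, against deposited changes of -1.50, -1.36 and -1.34 for the brighter probe. The second CYP26A1 probe was not detected on the H1.2sh array or on either NCsh array.

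Heat-inducible chaperones, which respond to HSF1, had 0 of 21 members higher and 5 lower, 4 of them past the band (HSPA1A, HSPA1B, HSPA6 and DNAJB1). Interferon-stimulated and antigen presentation genes had 1 of 28 higher and 8 lower, of which 3 lay past the band (IFITM1, TAP1 and IFI6). On the near side, UBE2L6 was lower by -0.51 ± 0.07 and HLA-B by -0.49 ± 0.10 (limma adjusted p = 0.0013 and 0.012). HOX genes had 1 of 25 higher and 5 lower, 4 of them past the band (HOXD9, HOXB13, HOXD4 and HOXC9). HSPA1A, IFITM1, HOXD4 and COL4A6 were among the probes with mismatched detection p-values, as were HOXD9, HOXB13 and RTN2, and no lower bound is given for any of them because the 14 lowest signals with a detection p-value under 0.05 on the H1.2sh array all belonged to mismatched probes. Neuronal and neurofilament genes had 3 of 26 higher and 6 lower, 4 of them past the band (INA, SYP, DPYSL2 and STMN3).

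Replication-dependent core histones, which package DNA in S phase, had 1 of 28 measured members higher and 6 lower, 3 of them past the band (H2BC5, H2BC12 and H2AC18), and the median was 0.00. H2BC5 had 7.17 and 7.24 on the H1.2sh arrays, against 8.56 and 8.68 on the NCsh arrays, and H2BC12 had 11.14 and 11.20 on the H1.2sh arrays, against 12.41 and 12.26 on the NCsh arrays. A second H2BC5 probe gave -0.50. H2AC20 and H2AC19 were lower by -0.31 and -0.30 on the near side, and H2BC11 by -0.41, a call lost under 4 alternatives. H2AC18 and H2AC19 are near-identical copies that probes may not tell apart. In Cul4Ash, H2AC18, H2AC19 and H2AC20 were higher than in NCsh by 1.40, 1.44 and 1.203 in that order, and H1.2sh was lower than Cul4Ash by -1.74 for H2AC19 and -1.52 for H2AC20 (limma adjusted p = 1.5e-06 and 2.3e-06). The measured neighbours of H1-2 on chromosome 6 other than H2BC5 did not pass the test, H4C3 at -0.05, H2BC4 at 0.09 and H2AC6 at 0.01 among them.

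**Figure D4:**
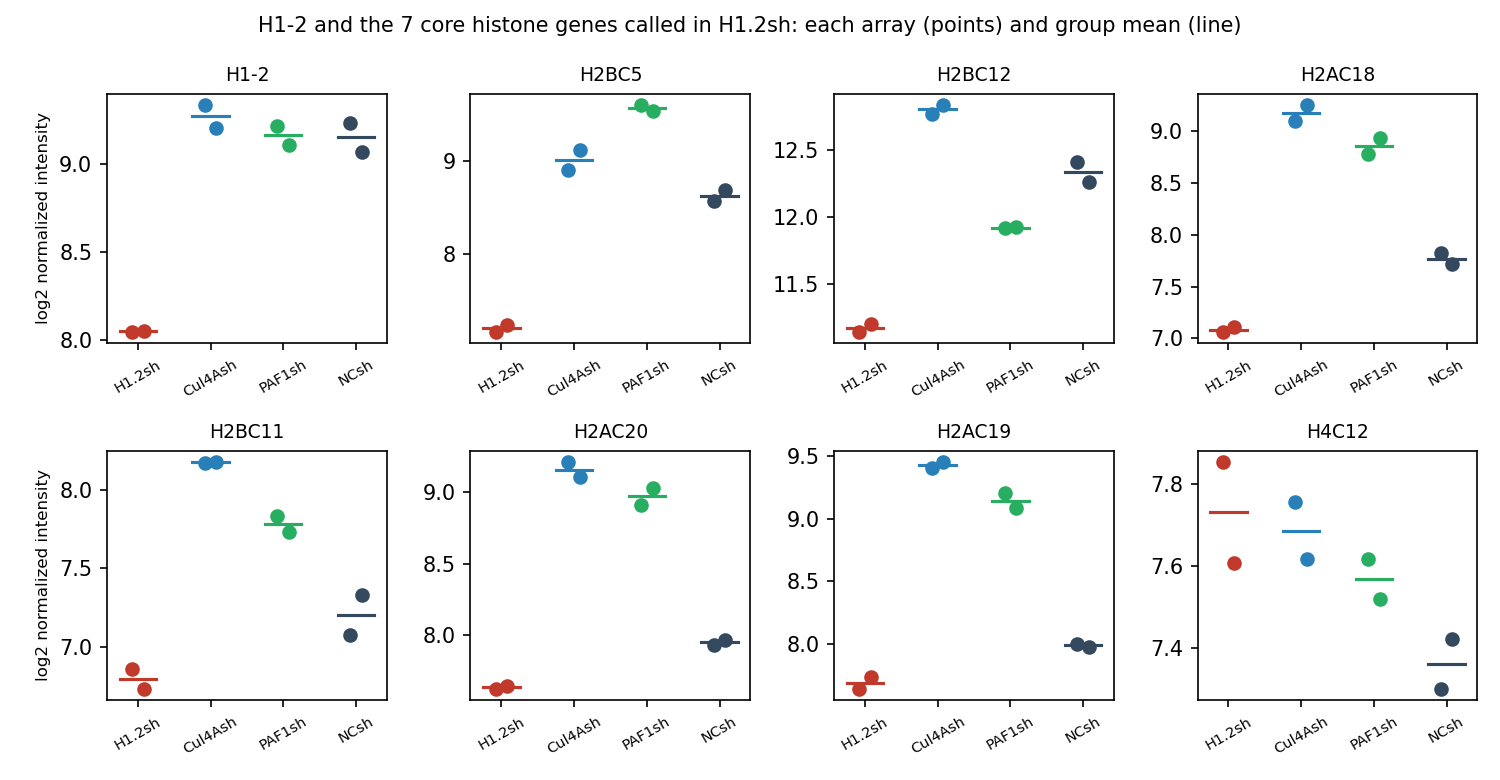
Log2 normalized intensity of H1-2 and the 7 core histone genes called in H1.2sh (vertical axis, a scale of its own in each panel), with each array as a point and the group mean as a line, for H1.2sh, Cul4Ash, PAF1sh and NCsh. H2AC18 was lowest in H1.2sh and highest in Cul4Ash.

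**Figure D5:**
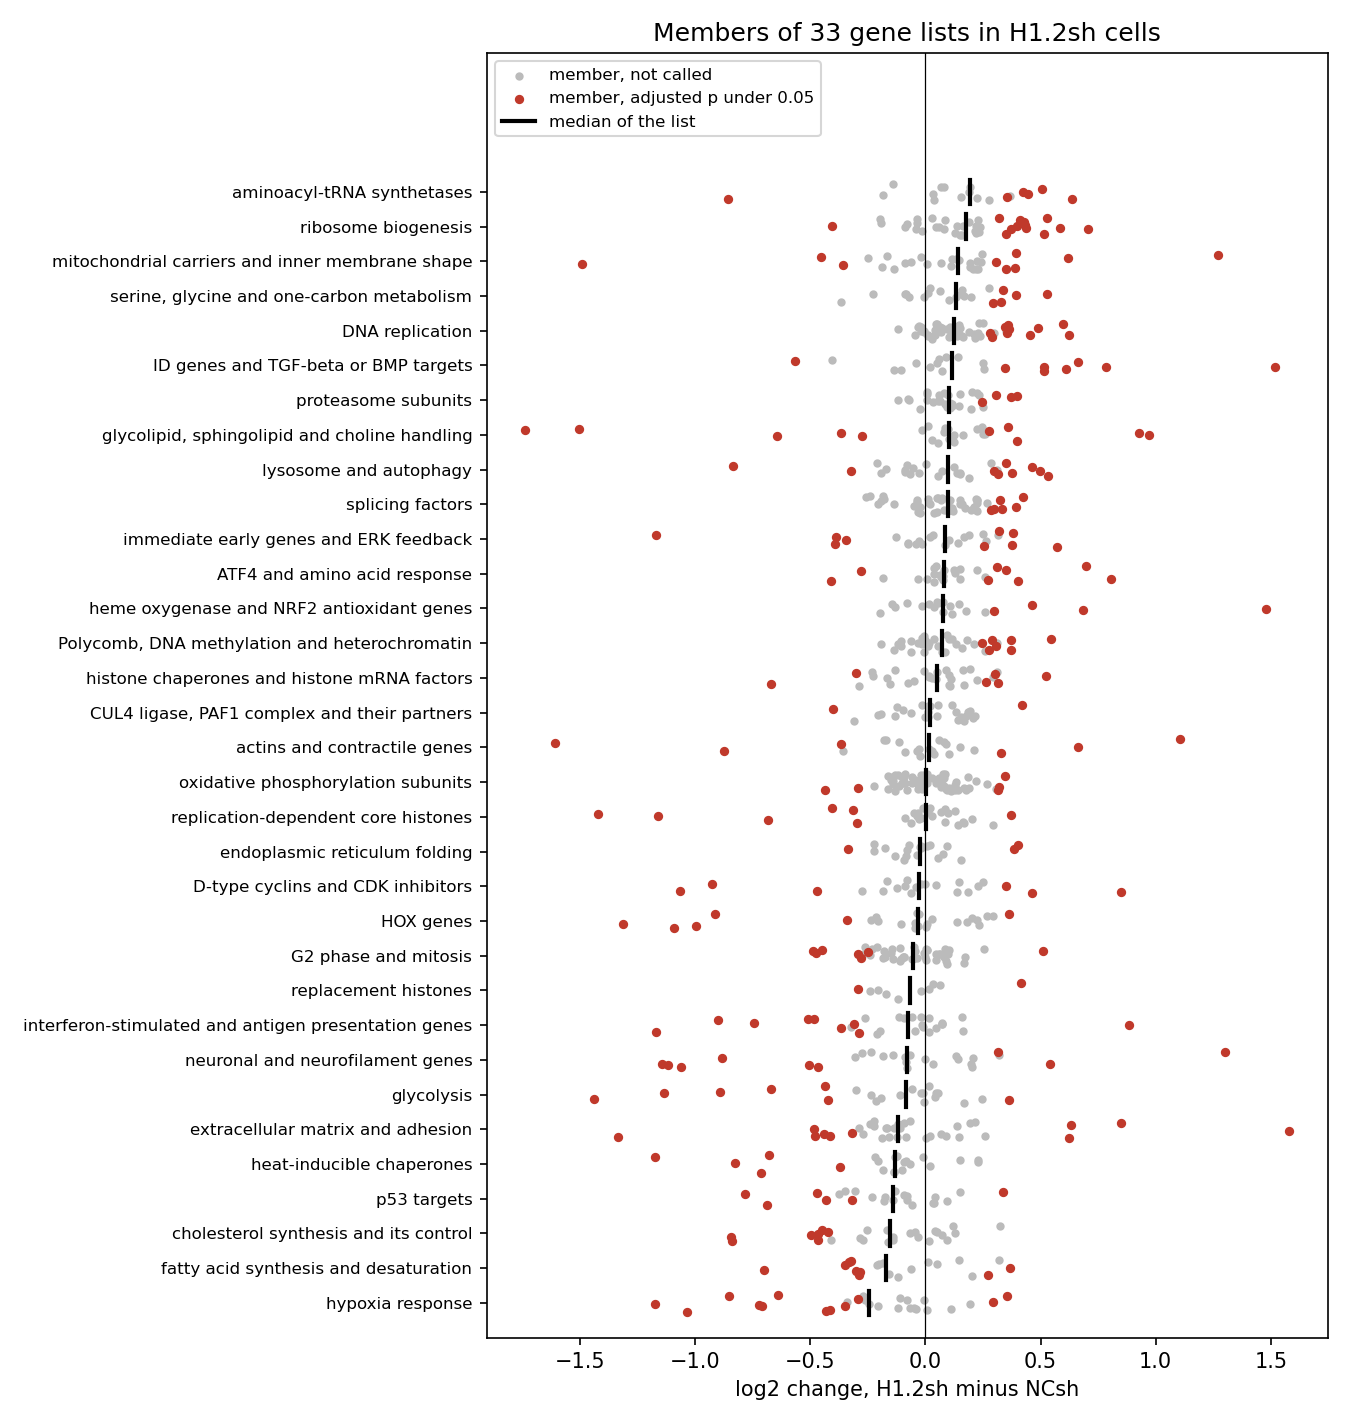
Log2 change of H1.2sh minus NCsh (horizontal axis) for the measured members of 33 gene lists, one row per list ordered by its median (black bar), with called members in red. Hypoxia response genes have the lowest median, -0.24, and 5 of their 10 called falls lie past the sparse band.

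Promoter sequences are shown for genes of 4 lists whose textbook motifs are short, to let the motifs be seen. The sequences are from RefSeq (GRCh38.p14), written 5′ to 3′ on the gene's strand, and capitals mark the motif on either strand. For the HIF core ACGTG, searched on both strands of the 250 bases before the start, the 2 examples are BNIP3 (chr10:131982032-131982077, minus strand) and P4HA1 (chr10:73096928-73096972, minus strand).
BNIP3: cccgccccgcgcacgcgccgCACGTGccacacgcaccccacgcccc
P4HA1: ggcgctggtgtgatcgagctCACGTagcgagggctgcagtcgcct
For the heat shock element core GAANNTTC they are HSPA1B (chr6:31827613-31827660, plus strand) and DNAJB1 (chr19:14518417-14518494, minus strand).
HSPA1B: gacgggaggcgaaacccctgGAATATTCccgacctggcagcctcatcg
DNAJB1: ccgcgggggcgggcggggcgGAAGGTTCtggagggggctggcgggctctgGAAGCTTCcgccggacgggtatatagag
For the interferon-stimulated response element core the example is IFITM1 (chr11:313980-314029, plus strand).
IFITM1: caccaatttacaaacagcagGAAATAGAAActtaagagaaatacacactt
For CCAAT the example is H2BC5 (chr6:26157943-26158072, plus strand).
H2BC5: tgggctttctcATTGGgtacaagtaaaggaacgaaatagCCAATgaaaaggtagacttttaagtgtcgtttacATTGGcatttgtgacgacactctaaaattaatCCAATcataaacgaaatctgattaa

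Of the fallen hypoxia genes with a promoter entry, 8 of 9 held ACGTG, as did 14 of all 23 list members with an entry, against 28.9% of 9837 genes. GAANNTTC was in 4 of 5 fallen heat-inducible genes and 11 of 19 members, against 5.82%, and a longer form with another GAA was in 1 of 5 and 6 of 19, against 0.468%. TCACNCCAC, a sterol element, was in 0 of 6 fallen cholesterol genes and 1 of 23 members, against 1.19%. The interferon element was in 6 of 8 fallen interferon genes and 15 of 24 members, against 3.23%. CCAAT was in 6 of 6 fallen core histones and 19 of 26 members, against 42.1%, and the octamer ATTTGCAT was in 3 of 6 and 9 of 26, against 1.85%. The motif was thus also present in members that did not fall, and a match is a description of these letters only.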

How the data were processed

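The authors deposited a scanner table with a linear bead signal (intensity) and a detection p-value per probe, and a series matrix of background-adjusted intensity for all 8 arrays. No software or setting for either is named in the labels or file headers. The scanner columns of 1 array are empty, and those named for replicate 2 of H1.2sh and of Cul4Ash hold the matrix values of other samples, so groups came from the labels through the matrix. The matrix was put on the log2 scale and then quantile normalized. A probe was kept at a detection p-value under 0.05 on at least 2 of 7 scanner arrays, and the brightest kept probe stood for a gene (12300 genes; names from GEO's platform annotation, checked by Entrez ID in RefSeq).

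The fit used limma 3.58.1 under R 4.3.3 (lmFit, then eBayes), 4 group means over 8 arrays, 4 residual degrees of freedom, with Benjamini-Hochberg adjustment and a threshold of 0.05. The small number of arrays limits the precision. The fit was tested on simulated data. Named were the hairpin targets, the 15 largest rises and falls, up to 5 called members per list, the 6 largest differences each way from Cul4Ash and PAF1sh, neighbours of H1-2 and second probes. Some results under this rule are not reported here. Members and lists were chosen with earlier results of these data known; single genes outside that rule (AK4 and others on the near side of the band) were chosen after their values were seen. The sparse band was noticed in the data. Its edges (0.55 and 0.65) were set afterwards. A dim probe was one whose running median detection p-value, over the 100 probes on each side in order of signal, exceeded 0.06, and a mismatch was a p-value more than 0.05 below it. Several such checks were tried, all after the band was seen. Probe rows left out of the files and an offset between the scanner table and the matrix were also looked at, and a first check of the order of p-values was discarded because a few probes dominated its count. Alternatives were other scalings, filters, probe rules and fits, leaving out each array, and leaving out genes past the band.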

Additional observations from a re-analysis of the deposited data

How the results depend on the processing

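Against NCsh, 895 genes were higher in H1.2sh and 1003 lower. Higher genes numbered 264 with median scaling, 201 without normalization and 465 without a filter on dim probes. Lower genes numbered 571 without that filter. With median scaling and without normalization the fit gave all genes 1 shared variance, so those counts differ by more than the scaling. Leaving out 1 array gave 306 to 474 higher and 446 to 601 lower. neqc on the 5 scanner arrays with undisputed names gave 0 calls each way with limma (1252 higher and 1361 lower at an unadjusted p under 0.05), where the matrix values of the same 5 arrays, chosen after seeing the data, gave 341 and 400; the cause was not tested. H1-2 had -1.32 under neqc (adjusted p = 0.0879). Against Cul4Ash, median scaling gave 705 higher and 1002 lower genes, against 1257 and 1524. With the replicate block 775 were higher and 909 lower; the replicate differences of H1.2sh and NCsh correlated at -0.116, so the numbers were not shown to pair the arrays. A fit without the genes lower by over 0.65, also chosen after seeing the data, gave 826 higher and 697 lower. The mismatch was checked on scanner signals only, since the matrix has no detection p-values. That last fit leaves the falls past the band out, and no other alternative was designed to remove them. Of 180 called named genes, 106 kept their call under all alternatives that held them, other than neqc. Named genes past the band were absent from the fit that left such genes out. Detection p-values exist for 1 H1.2sh array, which limits what can be said of dim genes.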
